A study of Mus musculus with 15 samples.

Results

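The positions described here are those at which nucleosome occupancy, read as histone H3, was listed as different between mice that were resilient and mice that were susceptible to social defeat. They are all the rows of the authors' deposited table for that pair of groups, 16273 positions out of 83219 in the 3 occupancy tables of the series. Each row gives a position on the mouse build mm9, the word Up or Down, the gene it was assigned to, a genomic class and a distance to the gene start. Positions are printed as the table writes them.

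The tissue was the nucleus accumbens of C57BL/6 mice. Resilient and susceptible mice had both gone through 10 days of chronic social defeat by CD1 aggressors and were parted by a social interaction test, in which susceptible mice avoid a social target; controls had not been defeated. Brains were taken 48 hours past the final defeat, and each sample pooled the punches of 10 mice. The labels used here name neither sex nor age. Each group was represented by 1 H3 sample, a library of micrococcal nuclease fragments pulled down with an H3 antibody. No replicate spread exists for any value below, and no test between the groups was possible. A pool of 10 animals gives no variation between animals, and a punch holds several cell types, so a change in the mix of cells and a change within cells cannot be told apart.

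Nucleosomes are the units in which DNA is wrapped around histones, and H3 is one of the core histones. Micrococcal nuclease cuts the DNA between nucleosomes, so that the protected fragments mark where nucleosomes sit. A higher occupancy means that a stretch of DNA is wrapped in a larger share of the molecules sampled. Active gene starts are known for a gap in the nucleosome array, and remodelling complexes such as ACF space and slide nucleosomes along the DNA.

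Direction was close to even over the whole table. The authors' deposited table marked 7954 positions Up, 48.9%, and 8319 positions Down, 51.1%. Up was taken to mean higher occupancy in resilient mice, the group named first; nothing in the file says so, and if Up means the reverse, all directions below must be swapped. The table gives neither the size of a change nor a p-value nor a read count, and it does not list the positions that were examined and not selected. Depth is therefore unknown, and the shares below describe what was selected. The table of susceptible against control mice held 49408 positions with 14.8% Up, or 16617 with 40.4% Up outside chromosome 1, and that of resilient against control mice held 17538 with 38.3% Up. These tables share the susceptible or the resilient sample with the one described here, so their values are set beside it and nothing is drawn from their likeness.

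Autosomes carried the positions at similar density, and the sex chromosomes carried few. The 19 autosomes held from 5.42 positions per Mb on chromosome 12 to 8.14 on chromosome 7, with a median of 6.41. Chromosome X held 101 positions, or 0.606 per Mb, and chromosome Y held 31, or 1.95 per Mb. Between 45.2% and 53.4% of positions were Up on 18 of the autosomes, the ends of that range being chromosomes 4 and 19. Chromosome 7 stood below it, with 503 of 1242 positions Up, 40.5%. Its 21 bins of 1 Mb with at least 15 positions were 31.8% Up over 400 positions, and its other 119 bins were 44.7% Up over 842. On chromosome X 29 positions were Up and 72 Down, and 42 of the Down positions lay in the last bin of the chromosome, within 35.4 kb. The other 59 positions of chromosome X were 29 Up and 30 Down.

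**Figure D1:**
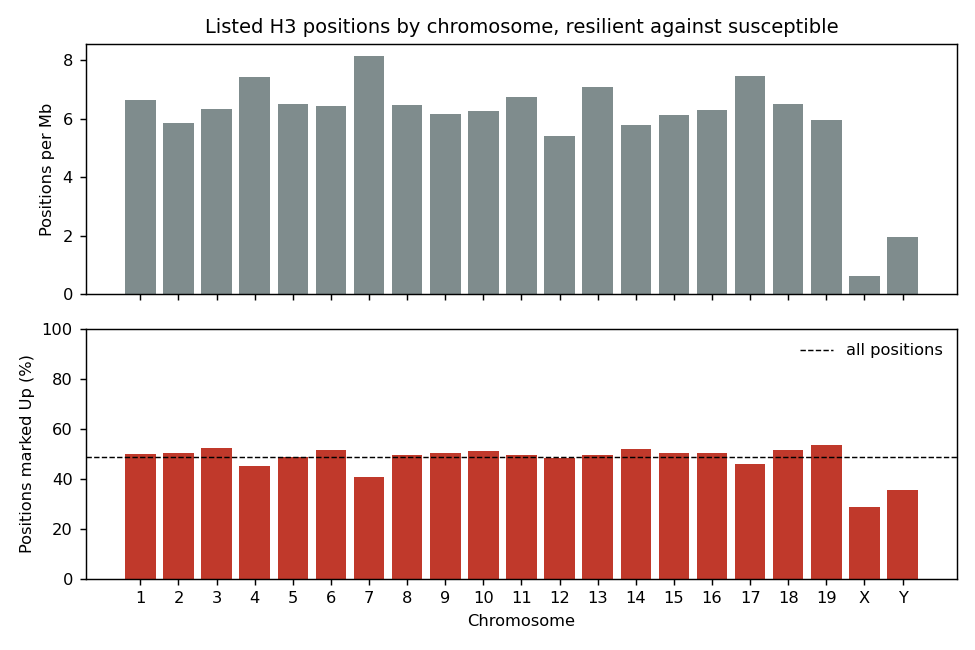
Listed H3 positions per Mb (upper panel) and the percent of them marked Up (lower panel, dashed line at 48.9% for all positions) for each mouse chromosome in the table of resilient against susceptible mice. Chromosome 7 has the highest density, 8.14 per Mb, and 40.5% Up, and chromosome X the lowest density, 0.606 per Mb, and 28.7% Up.

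Most positions lay outside genes. Intergenic stretches other than deserts held 7849 positions (48.2% of the table), gene bodies 4639 (28.5%), gene deserts 3058 (18.8%), the 3 promoter classes 639 (3.93%) and pericentromeres, the stretches next to the centromere, 88 (0.541%). Gene bodies had 2321 Up and 2318 Down positions, deserts were 50.3% Up, other intergenic stretches 48.0% and promoter classes 46.6%, all near the 48.9% over all positions. Pericentromeric positions were 33 Up and 55 Down, 37.5% Up, with 26 of the 88 on chromosome Y. In the other tables pericentromeric positions were 57.3% Up for susceptible against control outside chromosome 1 (55 of 96) and 36.8% Up for resilient against control (35 of 95). The class shares of those tables differed little from these: gene bodies took 29.0% and 29.5%, and promoter classes 4.53% and 4.22%.

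The sequences before the annotated gene starts closest to a listed position come first. An annotated start need not be where transcription begins. The 10 genes with the closest promoter position were Msmb, Pisd-ps1, Pcdhga8, D730050B12Rik, 1700123O12Rik, Olfr1016, Sprr2g, Mir196a-2, Pigr and Olfr547. RefSeq's promoter table (build GRCm38.p6) was used for 5 of them, and the 250 bases before the gene start are printed 5′ to 3′ on the gene's strand with every CpG in capitals. RefSeq's start on that build need not be the start the authors used on mm9. For Olfr1016, D730050B12Rik and Olfr547 the listed position lay after the start, and so outside the bases before it. CpG is the dinucleotide that carries most DNA methylation in mammals, and promoters rich in it tend to be active in many tissues.
Olfr1016 (Up), chr2:85800269-85800518, minus strand: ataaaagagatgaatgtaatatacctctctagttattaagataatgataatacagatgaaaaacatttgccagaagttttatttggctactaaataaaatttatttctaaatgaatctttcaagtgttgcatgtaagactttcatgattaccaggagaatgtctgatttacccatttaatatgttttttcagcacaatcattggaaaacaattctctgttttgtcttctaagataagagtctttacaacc
Pigr (Up), chr1:130826434-130826683, plus strand: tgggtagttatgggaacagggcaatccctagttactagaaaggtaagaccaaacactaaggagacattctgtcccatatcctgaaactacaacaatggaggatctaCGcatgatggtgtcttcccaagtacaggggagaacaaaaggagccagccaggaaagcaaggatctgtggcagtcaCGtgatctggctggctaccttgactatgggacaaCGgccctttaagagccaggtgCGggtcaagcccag
1700123O12Rik (Up), chr4:10797803-10798052, minus strand: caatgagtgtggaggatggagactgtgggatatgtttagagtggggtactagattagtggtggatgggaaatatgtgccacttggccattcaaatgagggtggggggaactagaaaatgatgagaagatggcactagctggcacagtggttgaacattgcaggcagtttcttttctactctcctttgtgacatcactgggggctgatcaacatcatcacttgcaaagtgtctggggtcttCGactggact
D730050B12Rik (Up), chr13:72816764-72817013, minus strand: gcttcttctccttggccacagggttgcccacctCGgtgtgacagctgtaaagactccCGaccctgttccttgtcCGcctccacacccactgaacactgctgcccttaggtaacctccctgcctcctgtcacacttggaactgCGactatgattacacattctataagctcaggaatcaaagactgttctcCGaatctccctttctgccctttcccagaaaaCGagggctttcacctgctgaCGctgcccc
Olfr547 (Down), chr7:102534499-102534748, plus strand: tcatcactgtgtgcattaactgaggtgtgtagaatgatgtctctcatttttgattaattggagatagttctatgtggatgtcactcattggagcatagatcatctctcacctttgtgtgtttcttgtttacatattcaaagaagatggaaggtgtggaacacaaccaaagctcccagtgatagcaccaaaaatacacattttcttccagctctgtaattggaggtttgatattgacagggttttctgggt
Olfr1016 and Olfr547, both odorant receptor genes, had no CpG in these 250 bases, as had 7.87% of the 32851 promoters of that table. 1700123O12Rik had 1 CpG, Pigr 4 and D730050B12Rik 7, against a median of 6 over all promoters, with quartiles of 2 and 16. GC content was 28.0% for Olfr1016, 38.8% for Olfr547, 47.6% for 1700123O12Rik, 50.4% for Pigr and 54.4% for D730050B12Rik, against a median of 52.4%. The letters CCAAT, searched on both strands, were found for Olfr1016 and Olfr547, and in 33.8% of all promoters. Neither TATAAA nor GGGCGG, searched likewise, was found in any of the 5; all promoters held them in 12.4% and 32.7%. A match of letters is a description and no binding site. CpG content was not compared between genes with and without a promoter position, because only 450 of the 607 genes (74.1%) had an entry in that table, under the 80% needed for such a comparison.

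At 8 microRNA genes the authors' deposited table listed 1 position each. MicroRNAs are short RNAs that pair with messenger RNAs through their seed, bases 2 to 8, and lower their output. Mature arms of the 4 best known of these genes, each with its position within 1000 bp of the start, are printed from RefSeq (GRCm38.p6), 5′ to 3′, with the seed in capitals.
miR-10a-5p: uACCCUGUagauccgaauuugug
miR-196a-5p: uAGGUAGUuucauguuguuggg
miR-155-5p: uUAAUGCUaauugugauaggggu
miR-329-3p: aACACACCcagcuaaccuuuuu
The RefSeq table holds mature arms for 7 of the 8 genes, and no seed was shared among them. Mir10a, which lies in the Hoxb gene cluster, had a Down position 243.5 bp after its start, past the end of the gene. Mir196a-2, in the Hoxc cluster, had a Down position 48.5 bp before its start. Mir155, known for its role in immune cells, had a Down position 622.5 bp before its start. Mir329, from an imprinted cluster with many microRNAs expressed in brain, had an Up position 181.5 bp after its start, also past the gene's end. Of the others, Mir205 and Mir710 had an Up position, and Mir1899 and Mir297-1 a Down position. That of Mir297-1 was of the gene body class, 49935.5 bp after the start. The entry for this gene runs from 27175876 to 27246498, far longer than those of the others. Its position therefore need not lie at the microRNA itself. Thus 5 of the 8 were Down, against 51.1% of all positions.

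Around gene starts positions lay in both directions, and their density was highest 2000 to 3000 bp away. The table calls a position ProximalPromoter within 250 bp of a start, Promoter1k within 1000 bp and Promoter3k within 3000 bp, as its own distances show. These classes held 50, 146 and 443 positions, which per 500 bp is 50 positions in the first, 48.7 in the second and 55.4 in the third. There were 318 positions before the start and 321 after it, and 149 of each were Up. In the 500 bp before the start lay 41 positions (18 Up) and in the 500 bp after it 48 (24 Up), against 57 and 50 in the next 500 bp on either side. Between 1000 and 2000 bp away there were 48 per 500 bp before the start and 50 after it. Between 2000 and 3000 bp away there were 62 and 61.5. ProximalPromoter positions were 25 Up and 25 Down, Promoter1k positions 66 Up and 80 Down, and Promoter3k positions 207 Up and 236 Down.

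Of the 10 genes with the closest promoter position, 6 had it Up and 4 Down. Up positions lay 11.5 bp before the start of Pisd-ps1, a pseudogene of a phospholipid enzyme, 22.5 bp after that of the protocadherin Pcdhga8, 29.5 bp after that of D730050B12Rik and 32.5 bp before that of 1700123O12Rik. Olfr1016 had an Up position 33.5 bp after its start, at 85640391 of chromosome 2, and another 743.5 bp after it. Pigr, the receptor that carries polymeric antibodies across epithelia, had an Up position 58.5 bp before its start, at 132723201 of chromosome 1. Down positions lay 6.5 bp before the start of Msmb, which encodes a secreted protein of the prostate, 34.5 bp before that of Sprr2g, of a family of cornified skin proteins, 48.5 bp before that of Mir196a-2 and 59.5 bp after that of Olfr547.

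Few promoters held more than 1 position. Of the 607 genes with a promoter position, 579 had 1, and 28 had 2 or more: 3 had all of theirs Up, 9 all Down and 16 both. Smok2a, of a family of sperm motility kinases, had 4, 2 of them Up. Mroh2a had 3, all Down, at 2822.5 and 1522.5 bp before and 1257.5 bp after the start. Pisd-ps1 had 3, 1 Up and 2 Down. The genes with 2 Up positions were Olfr1016, 1700010J16Rik and Shcbp1. Those with 2 Down positions were Msmb, Trpm8, which encodes a cold-gated ion channel, Tead4, a transcription factor of the Hippo pathway, Orm1, an acute-phase protein, Olfr1211, G530011O06Rik, 4930425O10Rik and 9030619P08Rik. Smok2a and Pisd-ps1 have close relatives in the genome, and nothing used here says how the authors placed reads that fit several copies, so their directions are uncertain.

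Genes held 5278 of the positions (32.4%), under 3552 symbols. One symbol stood on 2 chromosomes and is counted on each, which makes 3553 genes. Of these, 2622 had 1 position, 601 had 2 and 101 had 5 or more. Long genes held more: the 153 genes of 500 kb or longer had a median of 3 positions and the 998 of 100 to 500 kb a median of 1. Of the 101 genes with 5 or more positions, 44 were 500 kb or longer, 48 were 100 to 500 kb, 8 were 20 to 100 kb and 1 was shorter. Per length, the median over genes with a position was 0.383 positions per 100 kb in genes of 500 kb or longer. It was 0.799 in those of 100 to 500 kb, 2.63 in those of 20 to 100 kb and 10.9 in shorter ones. Every gene counted has at least 1 position, so by construction short genes show high values. Mid1, of 111 kb, held 24.3 per 100 kb. Sfi1, of 61.6 kb, held 42.2, and Mroh2a, of 35.3 kb, held 28.4.

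Most genes with many positions had both directions. Of the 44 genes of 500 kb or longer with 5 or more positions, 42 had both, and Prkg1 and Ptprk had 1. Fhit, a fragile-site gene of 1612 kb, had 8 Up and 8 Down positions. Nlgn1, the postsynaptic adhesion protein neuroligin 1, had 7 Up and 4 Down, and Gpc5, a cell-surface proteoglycan, had 4 Up and 9 Down. Adarb2, of the RNA-editing enzyme family, had 5 of each. Sdk1, an adhesion molecule that guides synaptic layers, Abca13, a lipid transporter, and Adamtsl3 each had 5 Up and 4 Down. Cdh23, a cadherin of hair cells, and Mecom, a transcription factor, had 4 Up and 5 Down, and Asic2, an acid-sensing channel, 3 Up and 6 Down. Gm13152, in a cluster of zinc finger genes on chromosome 4, had 3 Up and 16 Down over 286 kb.

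All positions were in 1 direction in 11 of the 101 genes with 5 or more, 10.9%: 6 had them Down and 5 Up. Mid1 had 27 Down and Sfi1 26 Down. Prkg1, a kinase switched on by cyclic GMP, had 6 Up. Grik4, a kainate receptor subunit, Ptprk, a receptor tyrosine phosphatase, Sema5a, a guidance molecule of the semaphorins, and Tbc1d22a, of a family that acts on Rab proteins, had 5 Up each. Chrm3, the muscarinic receptor M3, Stk32b, a protein kinase, Skint3, of a family that shapes skin T cells, and G530011O06Rik had 5 Down each. G530011O06Rik lies within the span of Mid1, so the 11 genes do not stand for 11 separate places. With a minimum of 3 positions 60 of 330 genes lay in 1 direction, 28 Up and 32 Down, and with a minimum of 10 only Mid1 and Sfi1 did, of 9. When positions within 1000 bp of each other were counted once, 9 genes had 5 or more in 1 direction; Ptprk and G530011O06Rik no longer reached 5. Counted that way Mid1 had 5 Down in place of 27, and Sfi1 21 in place of 26.

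**Figure D2:**
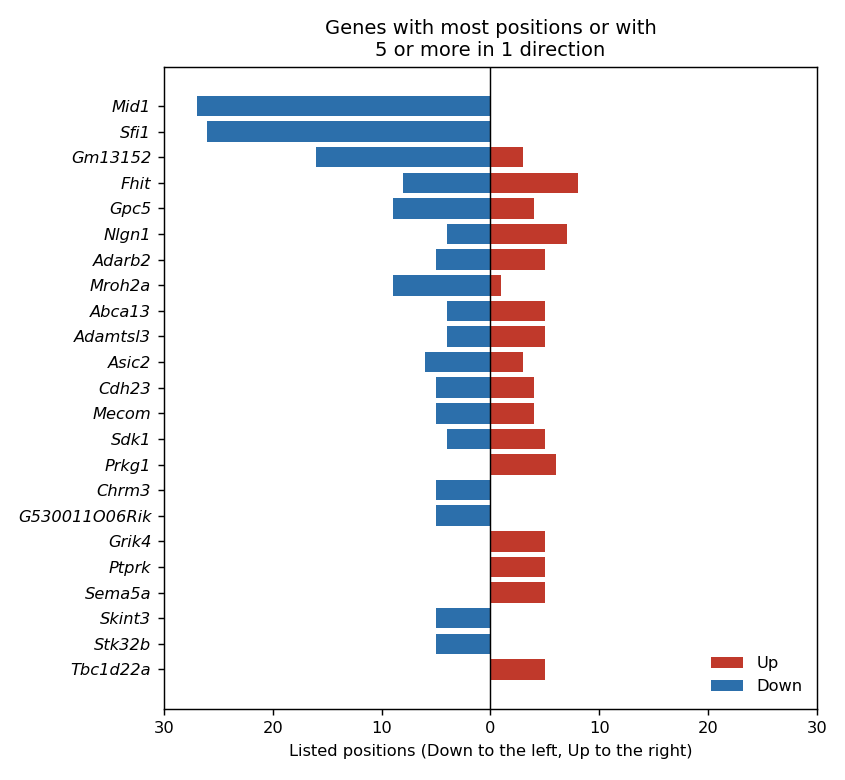
Number of listed positions marked Down (left) and Up (right) for genes with most positions and for every gene with 5 or more positions in 1 direction. Mid1 (27) and Sfi1 (26) are Down throughout, and Prkg1 (6), Grik4, Ptprk, Sema5a and Tbc1d22a (5 each) are Up throughout. Chrm3, Stk32b, Skint3 and G530011O06Rik (5 each) are Down throughout, and the other genes shown have both directions.

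Where these positions lay in the genes differed. The 5 Up positions of Grik4 were spread over 330 kb, at 83.5, 240, 243, 320 and 413 kb from the start. Those of Prkg1 ran from 5.50 to 1023 kb from the start given in each row, those of Sema5a from 171 to 394 kb, those of Ptprk from 100 to 289 kb and those of Tbc1d22a from 35.1 to 270 kb. The 5 Down positions of Chrm3 lay at 48.4, 74.6, 205, 427 and 448 kb from its start, and those of Stk32b between 48.0 and 262 kb. Apart from G530011O06Rik, which had 2 positions in promoter classes, all positions of these 11 genes were in the gene body class. In the table of resilient against control mice Grik4 had 4 Up and 1 Down, Prkg1 3 Up, Chrm3 1 Up and 2 Down and Stk32b 5 Down. Sema5a had 3 Up and 1 Down, Tbc1d22a 2 Up and 3 Down, Ptprk 1 of each, Skint3 1 Down and G530011O06Rik none. In that of susceptible against control mice Grik4 had none, Prkg1 had 1 Up and 2 Down, Chrm3 6 Up and 3 Down and Stk32b 5 Up and 3 Down. Sema5a had 2 of each there, Tbc1d22a 2 Down, Ptprk 1 Down, Skint3 none and G530011O06Rik 1 Up. Each of those tables shares a sample with the one described here.

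The largest group of Down positions lay at the end of chromosome X. Mid1, a ubiquitin ligase that binds microtubules, spans 166317553 to 166428729 on the plus strand. In C57BL/6 mice this gene crosses the border of the pseudoautosomal region, the stretch that X and Y share. Its 27 positions lay in the last part of the gene, 92.6 to 112 kb from its start, with 2 of them past its end by up to 742 bp. The noncoding gene G530011O06Rik lies within the span of Mid1, on the minus strand from 166412974 to 166416849. Its 5 positions lay between 166413441 and 166416461, and 10 more in the same bin had no gene. All 42 positions of the bin were Down. In the other tables the bin held 25 positions with 18 Up for susceptible against control and 20 with 0 Up for resilient against control. For Mid1 alone those counts were 14 Up and 2 Down, and 0 Up and 8 Down. How reads from the stretch shared by X and Y were placed is not given, and its part in these directions was not tested.

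Sfi1, a centrin-binding protein of the spindle pole, spans 3031852 to 3093466 on the minus strand of chromosome 11. Its 26 Down positions ran over 58.4 kb, nearly the whole gene. Susceptible against control gave 24 Up and 11 Down there, and resilient against control 1 Up and 22 Down. Whether reads at Sfi1 also fit other places in the genome was not examined, so these directions are uncertain. The bin from 3 to 4 Mb of chromosome 11, which also holds Pisd-ps1, had 44 positions, 4 of them Up, the most of any bin. Mroh2a, on chromosome 1, had 1 Up and 9 Down.

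**Figure D3:**
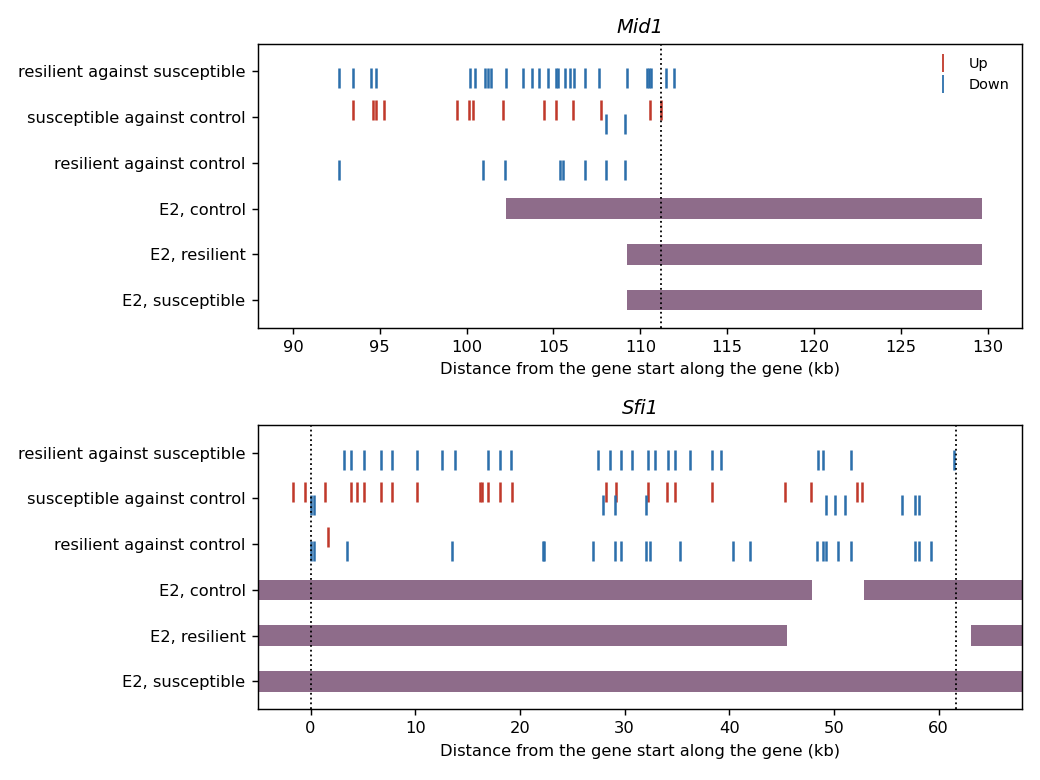
Listed positions in Mid1 (upper panel, last part of the gene) and Sfi1 (lower panel) by distance from the gene start in kb, as ticks for Up and Down in each of the 3 occupancy tables, with E2 segments of ACF1 as bars for each group; dotted lines mark the gene's ends. All 27 ticks of Mid1 and all 26 of Sfi1 are Down in resilient against susceptible mice. E2 segments overlie a part of Mid1 in each group. The segment of susceptible mice overlies all of Sfi1, and those of the other groups a part of it.

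The longest runs of neighbouring positions came from the end of chromosome X. The table held 183 runs, sets of 2 or more positions with gaps of at most 1000 bp, with 397 positions (2.44% of all), 159 Up and 238 Down. Of the runs, 170 had 2 positions, 38 were all Up, 64 all Down and 81 mixed. The longest had 17 positions in Mid1 over 7401 bp. It was followed by 5 in Mid1, 4 in G530011O06Rik and 4 with no gene past the end of Mid1, from 166432611 to 166433571. All of these were Down, and no other run had more than 3. Neighbours at most 300 bp apart had the same direction in 71.7% of 53 pairs, or 62.5% of 40 without chromosome X and Sfi1. Neighbours 300 to 1000 bp apart had it in 58.4% of 161 pairs, or 51.8% of 139 without them. Farther apart the share was 53.0% up to 5 kb and between 50.7% and 51.4% beyond. The median gap was 85.2 kb, and the smallest was 100 bp.

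Direction moved with how densely a stretch was filled. Bins of 1 Mb with 1 to 4 positions were 49.1% Up, those with 5 to 9 51.7%, those with 10 to 14 48.7% and those with 15 to 19 42.5%. The 26 bins with 20 or more held 655 positions, 171 Up and 484 Down, which is 26.1% Up. Every one of the 26 was under 50% Up, with a highest value of 42.9%. Without Mid1, Sfi1, Gm13152 and the end of chromosome X, 23 bins with 20 or more were left, with 29.8% Up over 543 positions. For susceptible against control outside chromosome 1 the 38 bins with 20 or more were 47.8% Up, and for resilient against control 28 such bins were 29.5% Up.

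The genes assigned in those 26 bins differed from bin to bin, and 3 bins had none. Chromosome 7 has 9 of the bins, some with genes of the Nlrp, Vmn1r, Sult2a, Cyp2a and Siglec families, whose members work in oocytes, pheromone sensing, sulfation, drug metabolism and immune cells. Chromosome 17 has 3, with Smok2a and with Vmn2r receptor genes of the vomeronasal organ. Chromosome 4 has 3, 1 of them with Gm13152 (26 positions, 5 Up) and 1 with no gene assigned (27 positions, 6 Up). A bin of chromosome 1 at 90 to 91 Mb, with Mroh2a and Ugt1a1, had 9 Up of 31, and 1 at 85 to 86 Mb had 1 Up of 20. On chromosome 8 a bin with defensin genes at 19 to 20 Mb had 3 Up of 23. Where a bin holds near-identical copies of a gene the placing of reads is uncertain, and its part in the result was not tested.

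**Figure D4:**
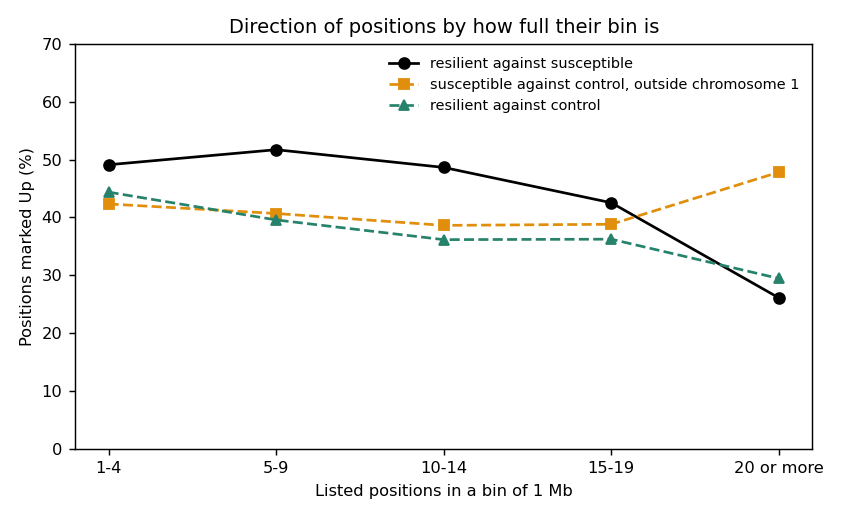
Percent of listed positions marked Up, by the number of positions in their 1 Mb bin, for each occupancy table (susceptible against control without chromosome 1). In resilient against susceptible mice the share falls from 51.7% in bins with 5 to 9 positions to 26.1% in bins with 20 or more.

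The ACF1 files divide the genome of each group into states E1 and E2, and nothing in them says which state stands for binding of ACF1, the accessory subunit of the ACF remodeller; the less common E2 was used. Within 1000 bp of E2 segments of susceptible mice lay 312 positions, 1.92% of the table, where 0.245% of the genome lies; 72 were Up and 240 Down. For segments of resilient mice there were 225 (1.38%, against 0.161% of the genome), 60 Up and 165 Down, and for controls 237 (1.46%, against 0.155%), 49 Up and 188 Down. Near segments of susceptible mice lay 0.905% of all Up positions and 2.88% of all Down positions. Without Mid1, Sfi1 and Gm13152 those near susceptible segments were 70 Up and 196 Down, 26.3% Up. Of the positions of Sfi1, 26 lay near E2 of susceptible, 22 of resilient and 24 of control mice. Of those of Mid1, 6, 6 and 20 did. Pisd-ps1, which has close relatives in the genome, had 3 positions near E2 of each group. How reads that fit several places were handled is not given for H3 or ACF1. The part of such reads in these shares was not tested.

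The authors' deposited table of nucleosome shifts for the same groups listed 561 shifts of 55 to 80 bp, 294 positive and 267 negative, and 2 of them stood at a position listed for occupancy. Most of the shifts, 389, had no gene. The other 172 fell in 127 genes, 35 of which had 3 or more occupancy positions. Sfi1 had most, with 22 shifts, 14 positive and 8 negative, followed by Gm13152 and Mid1 with 6 each and Mroh2a with 4. Sp110, a nuclear body protein, had 3 shifts and 6 occupancy positions, 1 Up and 5 Down, all within 1000 bp of E2 segments of every group. Sp140, a relative of Sp110, had 4 shifts and 2 Down positions. Each of these 6 genes had more Down than Up positions.

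Among genes of neuronal and chromatin functions, 13 lists with 509 genes were read. A position was listed for 176 of these genes, 192 positions Up and 188 Down, 50.5% Up against 48.9% over the table. Counted over genes named in any of the 3 occupancy tables, that is 176 of 282 list genes (62.4%), against 3552 of 7720 genes in all (46.0%). Susceptible against control had 32791 of its 49408 positions on chromosome 1, so genes of that chromosome were named more readily. No count without chromosome 1 was made. Below, each list is counted over its full size, with its genes named in any of the 3 tables in brackets. Only the bracketed numbers can be set beside these shares. The 176 genes had a median length of 313 kb, against 53.0 kb for all genes with a position, and longer genes held more positions; shares at matched length were not computed. Glutamate receptors and their scaffolds, which carry fast excitation, had positions in 20 of 41 genes (30 named), 31 Up and 16 Down. Of the 20 genes, 9 were all Up, 5 all Down and 6 mixed. Kainate receptor genes contributed Grik4 with 5 Up, Grik2 with 3 Up and Grik3 with 2 Up and 2 Down. The metabotropic receptor Grm8 had 6 Up and 2 Down, the AMPA receptor Gria4 2 Up and 1 Down and the NMDA receptor Grin2a 1 Up and 4 Down. One of the Up positions of Grik2 was of a promoter class, 2178.5 bp after the start.

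Potassium, sodium and calcium channels had positions in 25 of 61 genes (43 named), 21 Up and 31 Down. Ryr2, a calcium release channel, had 4 Down, Asic2 3 Up and 6 Down, Kcnb2 3 Up and 2 Down, Kcnip1 2 Up and 3 Down and Kcnj6 2 of each. Kcnc2 had 2 Up and 1 Down, and Kcnh8 1 Up and 2 Down. In cyclic nucleotide, kinase and G protein signalling 25 of 50 genes (35 named) had positions, 31 Up and 23 Down. Beside Prkg1, the phosphodiesterase Pde4d had 4 Up and 3 Down, Rgs6, which shortens G protein signals, 4 Up and 2 Down, and the adenylyl cyclases Adcy2 and Adcy8 2 Up and 2 Down and 2 Up and 1 Down.

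Synaptic adhesion had positions in 6 of 31 genes (9 named), 14 Up and 12 Down. Beside Nlgn1, Ptprd had 4 Up and 2 Down and Clstn2 2 Up and 3 Down. Immunoglobulin adhesion molecules and contactins had them in 17 of 30 genes (22 named), 29 Up and 22 Down. Dscam, which lets neurites of 1 cell avoid each other, had 5 Up and 2 Down, Cntnap4 3 Down, Cntnap5a 3 Up and 2 Down, Cntnap5c 3 of each, Ntm 2 of each, and Negr1 and Cntnap5b 2 Up and 1 Down. Cntnap5b and Nfasc, a protein of nodes of Ranvier, each had an Up position of a promoter class. That of Cntnap5b lay 2419.5 bp before the start and that of Nfasc 2643.5 bp after it. Cadherins and catenins had positions in 13 of 35 genes (23 named), 17 Up and 25 Down. Pcdh15 had 4 of each, Cdh13 4 Up and 2 Down, Ctnna3 1 Up and 3 Down and Ctnnd2 3 Down. Axon guidance genes had them in 24 of 45 (31 named), 21 Up and 16 Down. Sema5a had 5 Up, Epha6 2 Up and 1 Down and Sema3d 3 Down.

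Growth factors and their receptors had positions in 14 of 30 genes (24 named), 7 Up and 15 Down. Erbb4, a neuregulin receptor, had 3 Down and Fgf12 1 Up and 3 Down, and Vegfa, which drives vessel growth, had 1 Down in its promoter, 1805.5 bp before the start. Monoamine, acetylcholine, opioid and cannabinoid signalling had them in 10 of 50 genes (22 named), 6 Up and 8 Down. Of the Down positions, 5 were in Chrm3, and 1, of a promoter class, lay 2242.5 bp after the start of the adrenergic receptor Adra1b. GABA genes had them in 6 of 23 (9 named), 5 Up and 5 Down, with 1 Up and 2 Down in the receptor subunit Gabbr2. Histone and DNA modifying enzymes had them in 5 of 49 genes (12 named), 4 Up and 8 Down. Hdac9 had 4 Up and 3 Down, and Hdac7 had 1 Down of a promoter class, 1431.5 bp after its start. Chromatin remodellers had them in 8 of 33 (13 named), 5 Up and 5 Down. Stress hormone and immediate early genes had them in 3 of 32 (9 named), 1 Up and 2 Down.

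**Figure D5:**
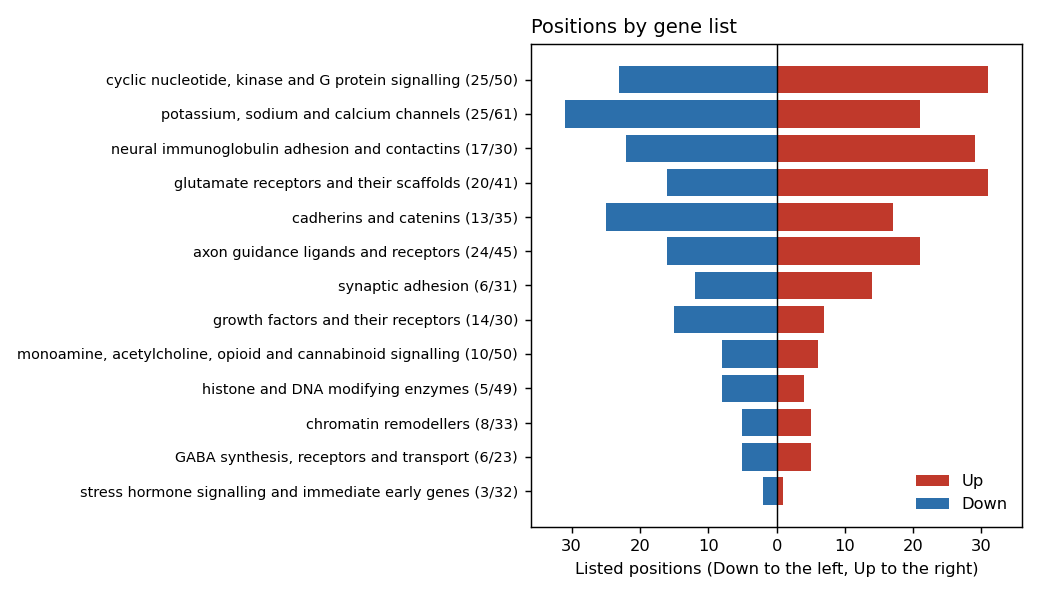
Number of listed positions marked Down (left) and Up (right) in each of 13 gene lists. Brackets give the list genes that had a position over the full size of the list, which includes genes named in no occupancy table. Glutamate receptors and their scaffolds had 31 Up and 16 Down, and ion channels 21 Up and 31 Down.

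Of the markers of cell types in and near the tissue that any of the 3 occupancy tables names, 13 of 27 had a position (48.1%), close to the 46.0% over all genes. Both shares include chromosome 1, whose genes were named more readily. The counts that follow are over full marker lists, with the markers named in any of the 3 tables in brackets. For the medium spiny neuron, the main neuron of the nucleus accumbens, 1 of 16 markers (4 named) had a position, and it was Up. Astrocyte markers had 3 Up in 3 of 9 genes (3 named), 1 of them in the promoter of Fgfr3. The microglial list had 1 Up in 1 of 10 (5 named) and the oligodendrocyte list 1 Up and 1 Down in 1 of 10 (2 named). Endothelial markers had 1 Up and 4 Down in 3 of 10 (8 named). Those of cortical excitatory neurons had 4 Up and 1 Down in 4 of 9 (5 named). Among these, Neurod6 had an Up position 434.5 bp before its start. The table holds changes and no levels, so the tissue could not be checked against these markers.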

How the data were processed

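H3 fragments from micrococcal nuclease digestion were immunoprecipitated, amplified with 15 PCR cycles and sequenced with 100 bp reads, per the labels' protocols; 1 H3 sample per group was analysed. CASAVA 1.8.2 and the build mm9 are named in the submitters' processing notes. Not given in the sources used here: the aligner, the program that called occupancy changes and its thresholds. The authors deposited selected positions marked Up or Down, and shifts in bp, with no size, score or depth; the pair of groups and its order were read from the name of each table. Positions lie on a grid of 10 bp, 16267 of 16273 ending in 1.

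Positions were counted with Python 3.11.15, pandas 2.3.3 and numpy 2.4.6 by chromosome, class, gene, run (gaps of at most 1000 bp), bin of 1 Mb and nearness (1000 bp) to ACF1 segments. The counting was tested on simulated positions. Exact 95% binomial intervals (scipy 1.17.1) served only to decide whether an alternative moved a share. Of 3634 transcript accessions 3558 were found in RefSeq's gene table (GRCm38.p6), used for names alone. The genes named were the 15 with most positions, those with 5 or more positions in 1 direction, those with 2 or more promoter positions or among the 10 closest to a start, list genes with 3 or more positions or a promoter position, and genes of the longest runs and fullest bins; some of them are not reported here. Members and lists were chosen with earlier results of these data known. The labels speak of replicates, but the tables hold 1 result per pair of groups.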

Additional observations from a re-analysis of the deposited data

How the results depend on the processing

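No paired analysis was possible because the values come from no test and each group had 1 sample. The share of positions that were Up stayed between 48.8% and 49.4%, and that in gene bodies between 28.2% and 28.5%, when runs were counted once and when chromosome 1, chromosomes X and Y, the 10 fullest bins or the positions of Mid1, Sfi1 and Gm13152 were left out; the last choice was made after seeing the data. Under the same choices the promoter share stayed between 3.81% and 3.97%, but it was 1.20% with a limit of 1000 bp from the start, which by construction drops the outermost class. Runs held 1.14% of positions with a gap of 500 bp and 10.6% with 5000 bp. The number of genes in 1 direction was 60 with a minimum of 3 positions and 2 with a minimum of 10. Within 5000 bp of E2 segments lay 1.95% (control), 1.81% (resilient) and 2.50% (susceptible) of positions, and 1.67% overlapped susceptible segments. Without Mid1, Sfi1 and Gm13152 the shares within 1000 bp were 1.14%, 1.15% and 1.64%. What depth limits cannot be computed, since the tables carry no counts.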

Other observations

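The gene families below were picked by symbol after their values were seen, so their counts are a description. Nlrp genes, which include sensors of innate immunity and factors of the oocyte, held 23 positions in 13 genes, 2 Up and 21 Down, with 11 genes all Down and 1 all Up; 18 of the positions lay in 10 genes of chromosome 7. In the table of susceptible against control mice outside chromosome 1 Nlrp genes had 12 Up and 6 Down, and in that of resilient against control 6 Up and 11 Down. Zfp genes, which encode zinc finger proteins, had 18 Up and 36 Down in 45 genes. Cyp genes, of the cytochrome P450 family, had 15 Up and 29 Down in 35 genes, and Skint genes 6 Up and 15 Down in 9. Odorant receptor genes (Olfr) had 28 Up and 24 Down in 50 genes and vomeronasal receptor genes (Vmn) 22 Up and 28 Down in 42. Grik genes, the kainate receptor subunits, had 12 Up and 2 Down in 4 genes, 3 of them all Up. Solute carriers (Slc), spread over the genome, had 51 Up and 53 Down in 77 genes, close to the 48.9% Up of the whole table.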
